A study of Mus musculus with 6 samples.

Results

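The 9 genes described here encode the channels through which Ca2+ leaves the endoplasmic reticulum (ER) and the pumps that return it there. They are the 3 inositol 1,4,5-trisphosphate (IP3) receptors Itpr1, Itpr2 and Itpr3, the 3 ryanodine receptors Ryr1, Ryr2 and Ryr3, and the 3 sarco/endoplasmic reticulum Ca2+-ATPases (SERCA) Atp2a1, Atp2a2 and Atp2a3. They were picked by gene symbol as complete families, out of 54838 genes of the count table. RNAseq was performed on hippocampi of 7-month-old females, 3 of them wild-type and 3 of the line FVB/NJ-Tg(ORAI1)Ibd, with 1 library from 1 mouse each. The transgene is a human ORAI1 coding sequence in a modified mouse Thy-1.2 expression cassette, which directs expression to neurons, whereas the RNA came from the whole hippocampus. ORAI1 is the plasma membrane channel that opens when the ER store has been emptied.

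In neurons, IP3 receptors open when phospholipase C downstream of glutamate or acetylcholine receptors produces IP3, and ryanodine receptors open when cytosolic Ca2+ rises. Both are very large tetrameric proteins of the ER membrane, and both amplify Ca2+ signals that start at the plasma membrane. SERCA pumps use ATP to move Ca2+ from the cytosol back into the ER and so keep the store filled. The study also imaged Ca2+ in hippocampal slices of the same line, taken from much younger mice, after glutamate, after a SERCA blocker and after Ca2+ was added back, and the expression of the genes for these steps bears on the question of whether release or uptake machinery differed between genotypes.

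Between 37414241 and 52497799 fragments were counted per library. The mouse gene Orai1 had 7.18, 7.16 and 8.08 CPM (counts per 1000000 of the library total after TMM scaling) in wild-type mice. In Tg(ORAI1)Ibd mice it had 313, 331 and 316 CPM, so every library matched its label. Counts at this gene do not tell fragments of the human transgene from those of mouse Orai1. Of 19087 genes tested with edgeR's quasi-likelihood test, 591 (3.10%) had a Benjamini-Hochberg adjusted p under 0.05 with a higher level in transgenic mice, and 764 with a lower level. Genes of the choroid plexus, an epithelium of the ventricles next to the hippocampus, were lower in transgenic libraries in 10 of 10 cases, with a summed level of 3730 to 5871 CPM in wild-type against 532 to 841 CPM in Tg(ORAI1)Ibd libraries. In bulk tissue, fewer cells of a type and less RNA per cell cannot be told apart. The 5 neuronal markers summed to 5726 to 5993 CPM in wild-type against 5508 to 5526 CPM in transgenic libraries, and 0 of them passed the test.

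Levels were compared between genes as FPKM, fragments per kilobase of exonic length and per 1000000 counted fragments. Atp2a2, the housekeeping pump known as SERCA2, had 152, 142 and 128 FPKM in wild-type libraries and 124, 116 and 113 FPKM in transgenic ones. Itpr1, the main IP3 receptor of neurons, followed with 28.8, 28.4 and 24.4 FPKM against 26.7, 21.7 and 18.9 FPKM. Atp2a2 was thus the most abundant of the 9 genes in each library, 5.18 times above Itpr1 in wild-type against 5.31 times in transgenic mice.

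Ryr2, the receptor best known from heart muscle and also the main type of the forebrain, stood at 13.1, 10.9 and 11.1 FPKM in wild-type against 11.5, 9.39 and 11.2 FPKM in transgenic libraries. Ryr3, a receptor of brain and other tissues, had 9.67, 8.90 and 7.43 FPKM against 9.02, 7.15 and 6.49 FPKM. Within each genotype every library of Ryr2 lay above every library of Ryr3. The next 3 genes could not be ordered, since their ranges overlapped within both genotypes: the means were 2.12 ± 0.12 (SD, n = 3) and 1.82 ± 0.22 FPKM for Atp2a3, 2.10 ± 0.18 and 1.88 ± 0.24 FPKM for Itpr2, and 1.78 ± 0.37 and 1.47 ± 0.55 FPKM for Ryr1, wild-type first. Itpr3 lay below them at 1.03 ± 0.080 and 0.836 ± 0.106 FPKM. Atp2a1, the pump of fast skeletal muscle, was lowest at 0.137 ± 0.042 and 0.152 ± 0.052 FPKM, from 17 to 27 fragments per library.

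**Figure D1:**
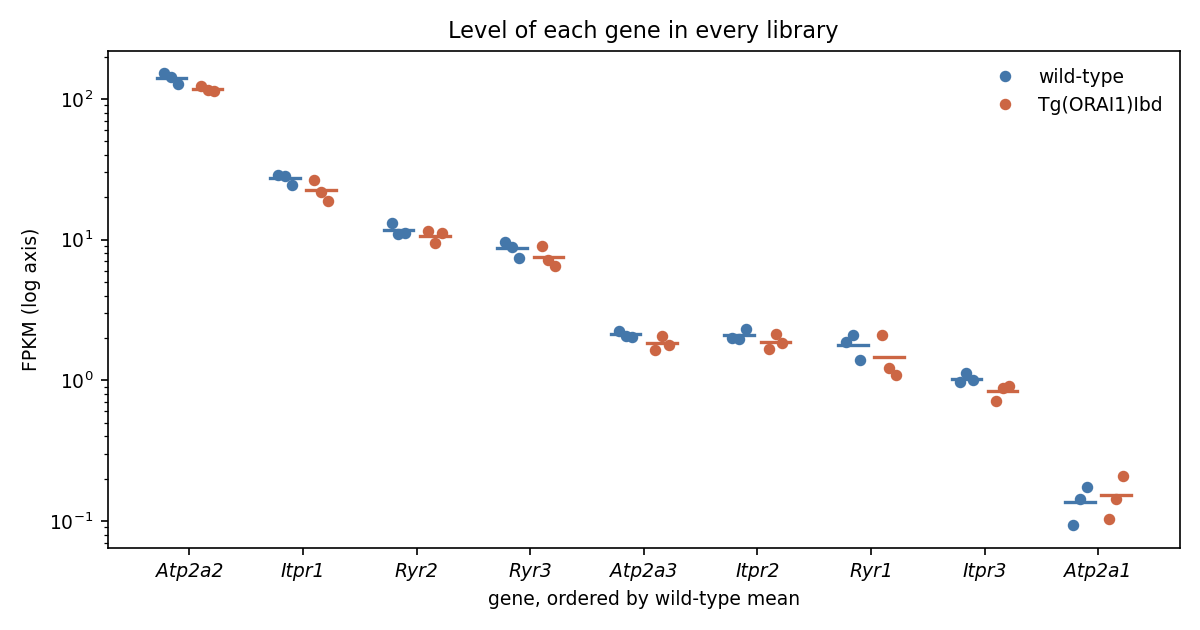
Level of the 9 genes in FPKM (log axis) in each wild-type (blue) and Tg(ORAI1)Ibd (orange) library, with genes ordered by their wild-type mean. Points are single mice and lines are genotype means; Atp2a2 lies above 100 FPKM and Atp2a1 near 0.1 FPKM in both genotypes.

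The most abundant genes of the families, Itpr1, Ryr2 and Atp2a2, lay on chromosomes 6 (108213096 to 108551109, plus strand), 13 (11553102 to 12106945, minus strand) and 5 (122453513 to 122502225, minus strand) of GRCm38. Of their paralogs, Itpr2 lay on chromosome 6 (146108299 to 146502223, minus strand), Itpr3 on 17 (27057304 to 27122223, plus strand), Ryr1 on 7 (29003344 to 29125179, minus strand) and Ryr3 on 2 (112631355 to 113217096, minus strand). Atp2a1 lay on 7 (126445858 to 126463108, minus strand) and Atp2a3 on 11 (72961169 to 72993044, plus strand). The ryanodine receptors have 107 to 109 exons each and the IP3 receptors 58 to 64 after merging their transcripts, against 21 to 23 in the pumps. Ryr2 had the longest exonic sequence, 28790 bases, and Atp2a1 the shortest, 3477 bases. Counts were summed over all exons of a gene, so its splice variants were not separated. Ryr3 overlaps Aven and Atp2a1 overlaps Rabep2, both on the opposite strand, with 190 to 326 and 592 to 773 fragments per library. The deposited counts kept the strand, and the part of Rabep2 in the 17 to 27 fragments of Atp2a1 was not tested.

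RefSeq promoter sequences of GRCm38.p6 were at hand for 6 of the 9 genes. The 250 bases before the transcription start are shown for the most abundant of these 6, Ryr2, for the least abundant, Atp2a1, and for its paralog Atp2a3, whose mean level was between them. They are printed 5′ to 3′ on the strand of the gene, at chr13:12106946-12107195 (minus) for Ryr2, chr7:126463074-126463323 (minus) for Atp2a1 and chr11:72960919-72961168 (plus) for Atp2a3. Capitals mark matches on either strand to the TATA box (letters TATAAA), the CCAAT box (its name gives the letters), the GC box (letters GGGCGG) and an E-box found in muscle genes (letters CAGCTG), and neighbouring GC boxes may share bases.
Ryr2: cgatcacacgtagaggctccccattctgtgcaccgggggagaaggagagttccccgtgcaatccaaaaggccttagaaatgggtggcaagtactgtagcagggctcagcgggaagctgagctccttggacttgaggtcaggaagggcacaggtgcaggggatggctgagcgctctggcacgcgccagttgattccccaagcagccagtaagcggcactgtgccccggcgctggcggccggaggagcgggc
Atp2a1: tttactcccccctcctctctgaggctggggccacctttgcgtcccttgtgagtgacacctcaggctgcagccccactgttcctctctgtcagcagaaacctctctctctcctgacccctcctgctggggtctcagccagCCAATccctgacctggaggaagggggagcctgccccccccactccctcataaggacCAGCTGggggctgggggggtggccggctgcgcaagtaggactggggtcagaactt
Atp2a3: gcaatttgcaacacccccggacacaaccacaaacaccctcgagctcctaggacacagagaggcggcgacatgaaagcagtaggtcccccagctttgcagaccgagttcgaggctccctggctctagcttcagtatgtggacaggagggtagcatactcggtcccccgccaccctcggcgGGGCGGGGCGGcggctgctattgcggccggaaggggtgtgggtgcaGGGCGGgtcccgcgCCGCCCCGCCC

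The Ryr2 window held 14 CpG dinucleotides and no match to the 4 motifs. The Atp2a1 window held 3 CpG, with 1 CCAAT box and 1 E-box, the latter -55 to -50 bases from the RefSeq start. This start lies within the Atp2a1 position given above, so the end of the window falls inside the annotated gene. The Atp2a3 window held 20 CpG and 5 GC boxes, the sequence bound by Sp-family factors. Over 32851 promoters of the same length the median was 6 CpG. Of these promoters, 12.4% held a TATA box, 33.8% a CCAAT box, 32.7% a GC box and 13% this E-box. A match describes the letters of the window and is not evidence that a factor binds there.

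Within the IP3 receptor family, Itpr1 had 529.7, 519 and 445 CPM in wild-type against 493, 397 and 345 CPM in Tg(ORAI1)Ibd libraries. The first transgenic mouse lay among the wild-type mice, while the other two were the lowest of the 6. The log2 fold change of transgenic over wild-type was -0.27 (SE 0.13, 95% interval -0.58 to 0.03), and edgeR's adjusted p was 0.217. Without the first Tg(ORAI1)Ibd mouse it was -0.42 with an edgeR adjusted p of 0.0463, in a fit that called 3.52% of all genes lower. Without wild-type mouse 1 it was -0.21 and without transgenic mouse 3 it was -0.14, with edgeR adjusted p-values of 0.506 and 0.534.

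Itpr2, the receptor typical of astrocytes and other glia, had 29.9, 29.2 and 34.1 CPM in wild-type against 24.8, 31.5 and 27.3 CPM in transgenic libraries. The genotypes overlapped, with a log2 fold change of -0.16 (SE 0.10, 95% interval -0.39 to 0.08) and an edgeR adjusted p of 0.349. It was -0.077 without transgenic mouse 1, -0.081 without wild-type mouse 3 and -0.23 without transgenic mouse 2, and -0.0093 with the trend on gene length removed. The astrocyte marker list summed to 4606 to 6438 CPM over the 6 libraries, and its ranges overlapped between genotypes as well.

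Itpr3, which is characteristic of epithelia and secretory cells, had 8.71, 10.05 and 8.96 CPM in wild-type against 6.47, 7.97 and 8.15 CPM in transgenic libraries. All transgenic values lay below all wild-type values, as was so for 17.9% of all genes tested. The log2 fold change was -0.30 (SE 0.12, 95% interval -0.57 to -0.03), with an unadjusted p of 0.0351 and an edgeR adjusted p of 0.147. Without transgenic mouse 1, its lowest library, it was -0.196 (edgeR adjusted p 0.242). Choroid plexus genes were lower in the same libraries, as given above, and so were the 5 ependymal markers, at 32.5 to 51.0 CPM summed in wild-type against 20.9 to 31.9 CPM in transgenic libraries, with 1 of them (Dnah11, an axonemal dynein of motile cilia) passing the test. Among wild-type mice, Itpr3 and both sums were highest in mouse 2. Among transgenic mice, mouse 1 had the lowest Itpr3 (6.47 CPM) but the highest choroid plexus and ependymal sums (841 and 31.9 CPM). The part of these epithelia in the Itpr3 values was not tested.

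Among the ryanodine receptors, Ryr1, the release channel of skeletal muscle that is also found in some central neurons, had 40.9, 45.9 and 30.1 CPM in wild-type against 46.2, 26.5 and 23.7 CPM in transgenic libraries. The highest and the lowest value of the 6 both came from transgenic mice. The log2 fold change of -0.27 had an SE of 0.26 and a 95% interval from -0.88 to 0.33, and edgeR's adjusted p was 0.537. Leaving out the first transgenic mouse moved the log2 fold change of Ryr1 to -0.64, with an edgeR adjusted p of 0.0679. It was -0.12 without wild-type mouse 2, -0.13 without transgenic mouse 2 and -0.07 without transgenic mouse 3, with edgeR adjusted p-values from 0.823 to 0.902.

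Ryr2 had 378, 315 and 318 CPM in wild-type against 333, 269.98 and 321 CPM in transgenic libraries, so 2 of the transgenic mice lay within the wild-type range. Its log2 fold change was -0.13 (SE 0.10, 95% interval -0.36 to 0.10; edgeR adjusted p 0.441). Leaving out 1 mouse moved it between -0.02, without wild-type mouse 1 or transgenic mouse 2, and -0.19, without transgenic mouse 1. Ryr3 had 184, 169 and 140.4 CPM against 173, 135 and 123 CPM, with 1 transgenic mouse within the wild-type range. The log2 fold change of Ryr3 was -0.19 (SE 0.14, 95% interval -0.52 to 0.13; edgeR adjusted p 0.407), and it ran from -0.07 without transgenic mouse 3 to -0.35 without transgenic mouse 1.

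Among the pumps, Atp2a2 had 927, 864 and 776 CPM in wild-type against 758, 707 and 689 CPM in transgenic libraries. The groups did not overlap, though the lowest wild-type and the highest transgenic mouse were close. Its log2 fold change was -0.25 (SE 0.076, 95% interval -0.43 to -0.08), with an unadjusted p of 0.0112 and an edgeR adjusted p of 0.0827. DESeq2's Wald test, which called 7.29% of the 16122 genes with an adjusted p lower in transgenic mice, gave Atp2a2 a log2 fold change of -0.24 and an adjusted p of 0.0250. Over all alternatives tried, the adjusted p of Atp2a2 ran from 0.0250 to 0.308.

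Atp2a3, the pump of blood cells and secretory epithelia, had 11.9, 10.9 and 10.7 CPM in wild-type against 8.70, 10.9 and 9.35 CPM in transgenic libraries. Its second transgenic mouse lay within the wild-type range, and the log2 fold change was -0.21 (SE 0.10, 95% interval -0.45 to 0.03; edgeR adjusted p 0.229). Atp2a1 had 0.325, 0.498 and 0.608 CPM against 0.364, 0.498 and 0.721 CPM. At this depth its log2 fold change of 0.15 had a 95% interval from -0.65 to 0.96, and the sign turned when wild-type mouse 1 or transgenic mouse 3 was left out. Of the 5 skeletal muscle markers, Ckm (muscle creatine kinase), Tnnt3 (troponin), Mylpf and Myh4 (myosin chains) had 0.019 to 0.908 CPM in all libraries and Acta1 (skeletal actin) had 4.32 to 5.90 CPM. The part of muscle in the Atp2a1 values was not tested.

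All 9 genes passed the filter on low counts, and 0 of them had an edgeR adjusted p under 0.05, against 7.10% of all genes tested. At an unadjusted p under 0.05 there were 2 genes, Itpr3 and Atp2a2, against 27.8% of all genes. The same 2 genes had all transgenic values below all wild-type values, as 17.9% of all genes had, and 0 of the 9 genes showed the opposite, as 16.9% of all genes did. Of the 9 log2 fold changes 8 were below 0, with a median of -0.21, while 51.7% of all genes tested were below 0, with a median of -0.010. The intervals show how large a difference could have gone uncalled: the lower bounds ran from -0.88 for Ryr1 to -0.36 for Ryr2, and that of Atp2a2 was -0.43.

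**Figure D2:**
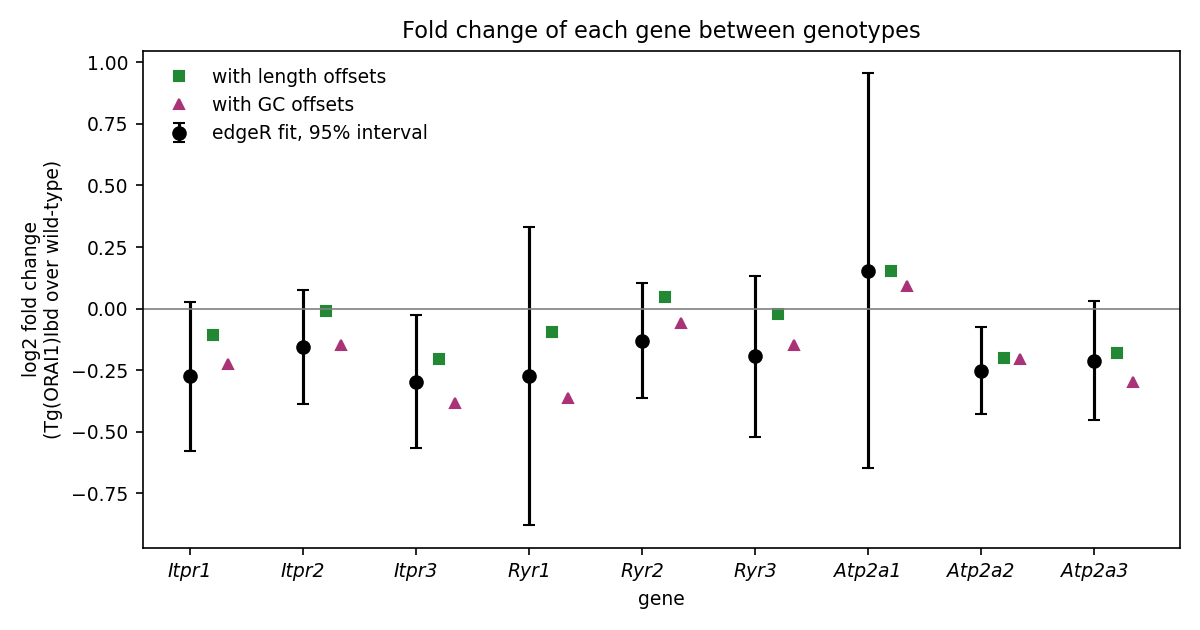
Log2 fold change of each gene, Tg(ORAI1)Ibd over wild-type, from edgeR's quasi-likelihood fit with its 95% interval (black circles) and with length offsets (green squares) or GC offsets (purple triangles). Of the 9 genes, 8 lie below 0 in the fit without offsets; with length offsets Ryr2 lies at 0.05.

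The direction of these values was shared by other long genes. The 1909 genes of the top length decile, with at least 9132 exonic bases, had a median log2 fold change of -0.10, 73.2% of them were below 0 and 11.2% were called lower. All 3 ryanodine receptors, Itpr1 and Itpr2 belong to this decile, and Itpr3 to the next. With the trend on length removed from each library, the median of the 9 genes was -0.096, that of Itpr1 was -0.11, Ryr3 was at -0.02 and Ryr2 at 0.05. Atp2a2, with 6081 bases, moved little, to -0.20. With the trend on GC content removed instead, the median of the 9 genes was -0.21, with Ryr2 at -0.059, Itpr3 at -0.38, Ryr1 at -0.36 and Atp2a3 at -0.30.

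The make-up of each family was compared as the share of each gene in the FPKM sum of its family. Itpr1 took 90.6, 90.2 and 88.1% of the IP3 receptors in wild-type against 91.8, 87.8 and 87.3% in transgenic libraries. Ryr2 took 53.2, 49.9 and 55.8% of the ryanodine receptors against 50.8, 52.9 and 59.6%, and Ryr3 most of the remainder with 39.0 ± 1.6% against 38.3 ± 3.2% (SD, n = 3). Ryr1 accounted for 8.04 ± 1.37% and 7.31 ± 1.79%, wild-type first. Atp2a2 took 98.3 to 98.5% of the SERCA pumps in wild-type against 98.1 to 98.6% in transgenic libraries.

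The shares overlapped between genotypes for all 9 genes. Mean differences were -0.66 percentage points for Itpr1, 1.49 for Ryr2 and -0.075 for Atp2a2. With 1 mouse left out they ran from -2.09 to 0.19, from -1.09 to 3.31 and from -0.209 to 0.029, so each of the 3 signs turned. Exact two-sided permutation tests gave p-values from 0.5 to 0.9 for the 9 shares, and 0.9 for each after Benjamini-Hochberg adjustment, where 3 mice against 3 cannot give less than 0.1.

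**Figure D3:**
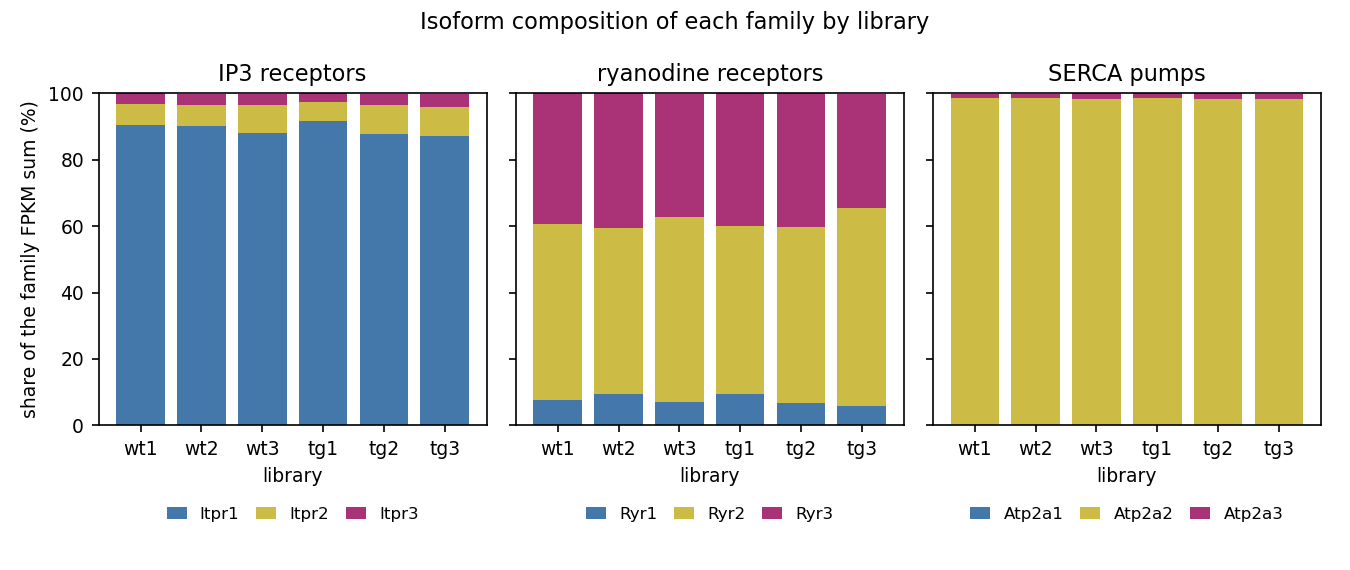
Share of each gene in the FPKM sum of its family (%), stacked to 100% for each of the 6 libraries (wt, wild-type; tg, Tg(ORAI1)Ibd). Itpr1 fills 87.3 to 91.8% of the IP3 receptors and Atp2a2 nearly all of the SERCA pumps, while Ryr2 and Ryr3 share most of the ryanodine receptors.

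Summed over families, the IP3 receptors had 30.3 ± 2.3 FPKM in wild-type against 25.1 ± 3.7 FPKM in transgenic mice (SD, n = 3; exact permutation p = 0.2). The ryanodine receptors had 22.2 ± 2.4 and 19.7 ± 2.6 FPKM (exact permutation p = 0.3). The SERCA pumps had 143 ± 12 and 120 ± 5 FPKM, and the groups did not overlap (exact permutation p = 0.1, the smallest that 3 against 3 allows). Atp2a2 made up nearly all of this sum, which thus restates the values of that gene. The log2 ratio of all 6 channels to the 3 pumps does not depend on how libraries are scaled. It was -1.45, -1.44 and -1.45 in the wild-type mice and -1.28, -1.48 and -1.52 in the transgenic mice, a difference of means of 0.02 (exact permutation p = 1), which ran from -0.053 to 0.065 with 1 mouse left out. The wild-type ratios were nearly equal and the transgenic ratios lay on both sides of them.

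The genes differed in how much mice of one genotype varied. The SD of log2 CPM within genotypes was 0.434 for Atp2a1, against a median of 0.332 for the 500 genes nearest to it in level. It was 0.426 for Ryr1, 0.227 for Ryr3, 0.207 for Itpr1, 0.156 for Ryr2 and 0.149 for Itpr2, while the 500 genes nearest in level to each of these 5 had medians between 0.069 and 0.078. For Atp2a2 it was 0.104 against 0.072 and for Itpr3 0.150 against 0.127. Itpr1, Ryr1 and Ryr3 had the same lower places. In each of the 3, transgenic mouse 1 lay above wild-type mouse 3, and transgenic mice 2 and 3 were the lowest. Itpr2 and Itpr3 had the first transgenic mouse as their lowest. The libraries fell in a similar way over all genes. Across 11191 genes, the deviation of transgenic mouse 1 from its genotype mean correlated with those of wild-type mice 1 and 2 (r = 0.399 and 0.4003) and inversely with that of wild-type mouse 3 (-0.588), while transgenic mice 2 and 3 correlated with wild-type mouse 3 (0.536 and 0.388). The 3 deviations of a genotype cancel out for each gene, so these correlations depend on one another and are not separate observations. The part of this split of the libraries in the values of the 9 genes was not tested.

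**Figure D4:**
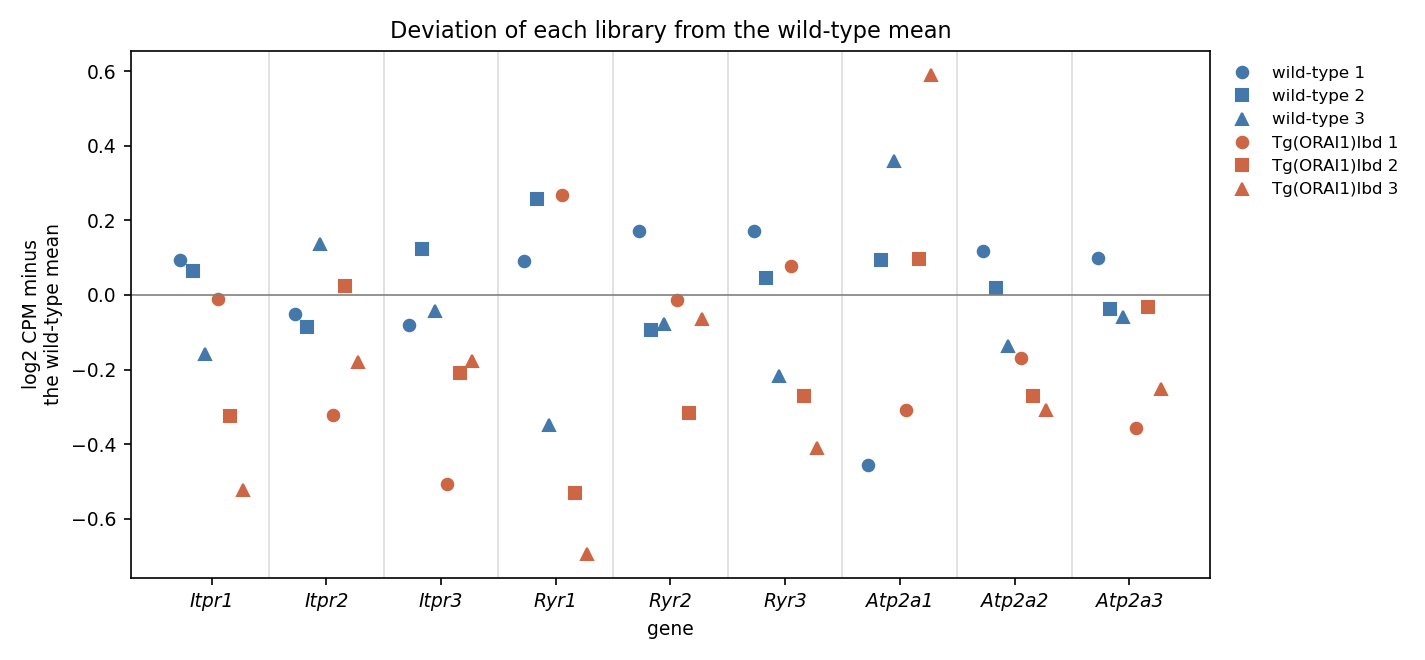
Deviation of each library from the wild-type mean of the gene, in log2 CPM, with wild-type mice in blue and Tg(ORAI1)Ibd mice in orange and a symbol for each replicate number. The first transgenic mouse (orange circle) lies within the wild-type range for Itpr1 and Ryr3 and is the highest of the 6 for Ryr1, and for Itpr2, Itpr3 and Atp2a3 it is the lowest of the 6.

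The genes most like each of the 9 over the 6 libraries were found by Pearson's r of log2 CPM among 11191 genes with a mean log2 CPM above 3. For Itpr1 they were Ipo8 (0.994), an importin, and Cadps2 (0.993), a factor for dense-core vesicle release, and 104 genes had an r above 0.95. For Ryr1 they were Fry and Pip5k1b (0.995 each), for Ryr3 Pcdhga12 and Trio (0.996 each), and for Ryr2 Ggcx (0.986) and Gm43951 (0.979). For Atp2a2 they were Usp29 and Magee1 (0.996 each), and 234 genes had an r above 0.95. For the less abundant genes they were Slc25a17 (0.995) and Galnt1 (0.988) for Itpr2, Ccz1 and Tcf12 (0.99 each) for Itpr3, Pfn2 (0.982) and Smndc1 (0.979) for Atp2a3, and Dhx32 and Pdlim2 (0.977 each) for Atp2a1. With 6 points that share libraries and their depth, these values only name the genes with similar profiles.

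The genes that work with the channels and pumps were followed in 6 lists of 82 genes, of which 78 were tested. Of these, 1 rose and 5 fell in transgenic mice with an edgeR adjusted p under 0.05, a total of 7.69% against 7.10% of all genes, and 40 log2 fold changes were below 0 and 38 above, with a median of -0.02. With 1 mouse left out in turn, 0 to 1 rose and 1 to 7 fell. The 6 called genes belong to 2 of the lists, those of IP3 production and of IP3 receptor partners.

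Upstream of the IP3 receptors, 2 of 12 phospholipase C genes fell and 0 rose, where 7.10% of all genes tested were called in either direction. No test of the list was made. Plcb1, the main phospholipase C beta of the hippocampus, which acts downstream of metabotropic glutamate and muscarinic receptors, had 256, 259 and 242 CPM in wild-type against 219, 204 and 209.9 CPM in transgenic libraries, and the groups were well apart. Its log2 fold change was -0.26 (SE 0.049, edgeR adjusted p 0.0312). Plcb4, which couples to metabotropic glutamate receptors in thalamus and cerebellum, went from 33.5 ± 2.6 to 24.7 ± 2.8 CPM (SD, n = 3), a log2 fold change of -0.44 with an edgeR adjusted p of 0.0390. Plch2, the other abundant member of the list, had 159 ± 8 and 175 ± 25 CPM and an edgeR adjusted p of 0.399. The 5 thalamic markers summed to 133 to 173 CPM in wild-type against 128 to 134 CPM in transgenic libraries with 0 called. The 5 cerebellar markers summed to 110 to 118 CPM and 61.2 to 125 CPM with 0 called. That sum was mostly Calb2 (means of 59.9 and 68.1 CPM) and Zic1 (53.6 and 26.7 CPM). Pcp2, Cbln3 and Gabra6 had 0.079 to 2.07 CPM, and of the 5 only Zic1 had a log2 fold change below 0. The part of these tissues in the Plcb4 values was not tested.

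Of the 8 genes of IP3 removal, 0 passed the test. The most abundant were the phosphatase Synj1, with 516 ± 27 CPM in wild-type against 466 ± 19 CPM in transgenic mice (edgeR adjusted p 0.146), and the neuronal IP3 kinase Itpka, with 105 ± 10 and 112 ± 14 CPM (edgeR adjusted p 0.589).

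Of 18 genes for partners of the IP3 receptors, 1 rose and 3 fell, again beside 7.10% of all genes called and with no test of the list. Homer3, one of the scaffolds that tie IP3 receptors to metabotropic glutamate receptors, had 43.8, 48.6 and 54.4 CPM in wild-type libraries. Transgenic libraries had 61.5, 61.7 and 65.2 CPM, a log2 fold change of 0.36 (SE 0.079, edgeR adjusted p 0.0422). With GC offsets, or with any mouse but wild-type mouse 3 left out, no list gene was called higher. Homer1 and Homer2 were more abundant and went the other way without passing the test. Homer2 went from 91.2 ± 11.2 to 69.5 ± 8.7 CPM (log2 fold change -0.39, edgeR adjusted p 0.0761). Homer1 went from 113 ± 15 to 99.1 ± 13.2 CPM (log2 fold change -0.19, edgeR adjusted p 0.350). Erlin2, part of the ER complex that targets activated IP3 receptors for degradation, went from 78.6 ± 2.9 to 64.1 ± 2.6 CPM (log2 fold change -0.29, edgeR adjusted p 0.0262). Ahcyl2, a relative of the IP3 receptor inhibitor IRBIT, went from 273 ± 22 to 215 ± 16 CPM (log2 fold change -0.35, edgeR adjusted p 0.0434).

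Itpripl1, named for its similarity to the IP3 receptor-interacting protein, showed the widest separation of the 78 genes. It had 4.51, 4.17 and 3.86 CPM in wild-type against 1.33, 1.44 and 1.76 CPM in transgenic libraries, a log2 fold change of -1.47 (SE 0.15, edgeR adjusted p 0.00570). IRBIT itself (Ahcyl1), at 392 ± 15 and 372 ± 11 CPM, and Grina, at 377 ± 13 and 412 ± 16 CPM, were the most abundant partners and did not pass the test (edgeR adjusted p 0.375 and 0.150). Choroid plexus genes were lower in the transgenic libraries as well. Among transgenic mice their sum was highest in mouse 1 (841 CPM). Itpripl1 (1.33 CPM) and Erlin2 (61.9 CPM) were lowest in that mouse, while Plcb1 (219 CPM) and Ahcyl2 (232 CPM) were highest. The part of the choroid plexus in these differences was not tested.

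Of the 14 partners of the ryanodine receptors, 0 passed the test. Calm3, a gene for the Ca2+ sensor calmodulin, had 1466 ± 32 and 1612 ± 39 CPM (edgeR adjusted p 0.141).

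Of the SERCA regulators 7 were tested and 0 passed. The ER chaperone Calr had 357, 328 and 335 CPM in wild-type against 431, 373 and 376 CPM in transgenic libraries (log2 fold change 0.21, edgeR adjusted p 0.0990), and Canx 362 ± 8 and 349.7 ± 16 CPM. Pln and Sln, the muscle peptides that inhibit SERCA, were picked for this text with their values known, and were low at 1.54 to 5.32 CPM and 0.393 to 1.01 CPM. Of the 19 genes for ER leak channels, counter-ion channels, secretory pathway pumps and luminal Ca2+ buffers 0 passed, with Tmbim6 at 346 ± 10 and 353 ± 10 CPM and Sdf4 at 230 ± 3 and 226 ± 8 CPM.

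**Figure D5:**
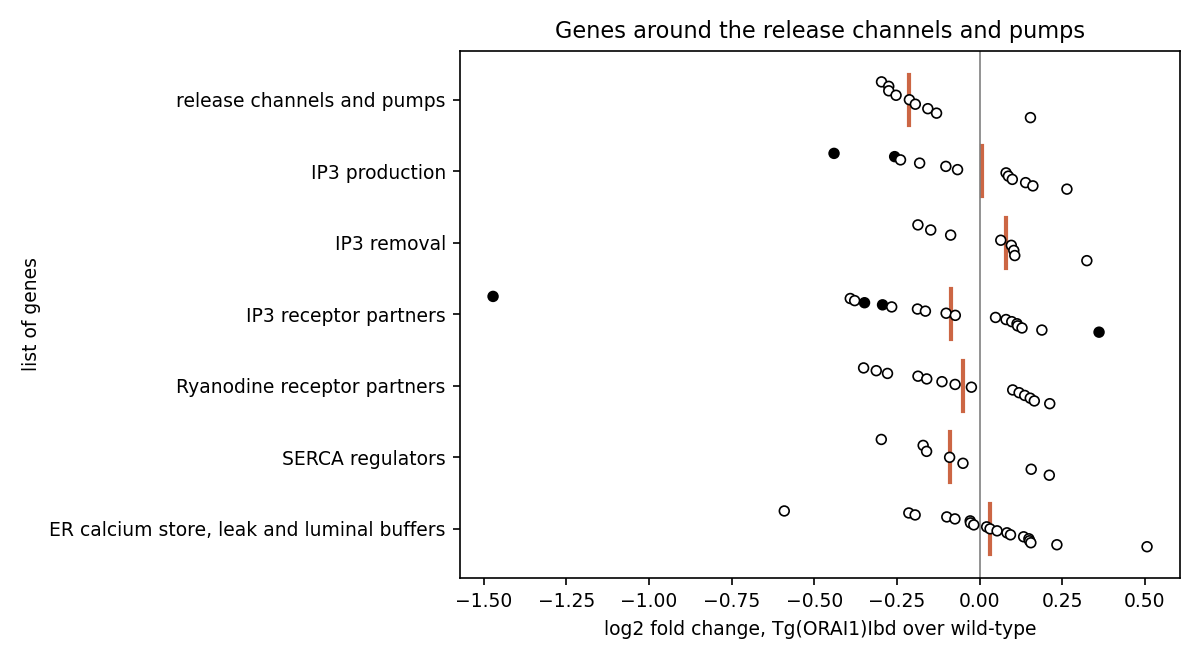
Log2 fold change, Tg(ORAI1)Ibd over wild-type, of the 9 genes (top row) and of the 78 tested genes in 6 lists around them; each point is a gene, filled where its edgeR adjusted p is under 0.05, and the bars are medians. The 6 filled points belong to IP3 production and to the partners of the IP3 receptors, and the medians of the 6 lists lie between -0.09 and 0.08.

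The remaining cell type lists were read beside these results. The markers of CA1 summed to 521 to 576 CPM in wild-type against 459.99 to 606 CPM in transgenic libraries, those of CA3 to 320.3 to 344 and 329 to 347 CPM, and those of the dentate gyrus to 336 to 344 and 365 to 391 CPM. In these 3 lists 1 gene passed the test, Man1a of the CA1 list, which fell. Interneuron markers summed to 575 to 719 and 490.2 to 620 CPM, and 1 of them, the GABA-synthesizing enzyme Gad2, fell. Endothelial markers summed to 139 to 155 and 146 to 191 CPM, and 1 of them, the tight junction gene Cldn5, rose.

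No gene passed in the other lists. Oligodendrocyte markers summed to 4094 to 5491 and 5143 to 5835 CPM, their precursors to 173 to 206 and 152 to 292 CPM, and microglia to 187 to 259.6 and 187 to 292 CPM. Mural cells gave 160 to 229 and 139.6 to 249 CPM, blood 172 to 244 and 123 to 224 CPM, skeletal muscle 5.90 to 6.97 and 6.65 to 7.91 CPM, and cardiac muscle 4.25 to 7.03 and 5.29 to 5.504 CPM. The part of these cells in the values of the 9 genes was not tested.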

How the data were processed

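RNAseq was performed on polyA RNA from 6 hippocampi. Per the labels and the study's methods, reads were filtered with Trimmomatic and aligned to mm10 with STAR. The authors deposited counts of fragments per gene, which were not normalized, made with featureCounts 1.5.0-p1 on the Ensembl 95 annotation (strand setting 2, mapping quality of at least 3), together with exonic gene lengths. These lengths and the counts were used to compute FPKM and CPM. CPM in the text are counts per 1000000 of the TMM-scaled library total. Depth limited the precision mainly of Atp2a1.

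Genes were kept by filterByExpr (minimum count 10), scaled by TMM and compared in edgeR 4.0.16 (R 4.3.3) by its quasi-likelihood test, without covariates and with all 6 libraries in the fit, with Benjamini-Hochberg adjustment over 19087 genes and a threshold of 0.05. The study's test, NOISeq, was not run. The 3 mice per genotype are separate animals. Shares and sums were compared by exact two-sided permutation tests. Positions and GC content came from GENCODE M21, promoters from RefSeq. The genes named are the 9 members and Orai1, and the 2 genes most alike each member. In each of the 6 pathway lists all genes called and the 2 most abundant are named. Outside this rule, Homer1, Homer2, Pln, Sln and the markers named were picked with their values known. An item covered by this rule is not reported here. The members and lists were chosen with earlier results of these data known. Marker lists had 5 genes each, and that of the choroid plexus 10. Other scalings, filters, tests (DESeq2 1.42.0, limma 3.58.1), length and GC offsets (loess, span 0.5), a replicate block and leaving out each mouse were tried. The fits were tested on simulated data.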

Additional observations from a re-analysis of the deposited data

How the results depend on the processing

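The 9 genes kept a count of 0 called higher in all 18 alternatives, and 0 were called lower in 16 of them. DESeq2's Wald test called 1 lower, and leaving out 1 mouse called 0 to 1. The sign of Ryr2 turned with length offsets (0.049) and with length offsets and the block (0.046), and that of Atp2a1 with 1 mouse left out (-0.11 to 0.38, below 0 without wild-type mouse 1, at -0.064, and without transgenic mouse 3). The causes were not tested. Isoform shares and the ratio of channels to pumps moved by less than the SD of the transgenic mice in each of their 7 alternatives, but the shares of Itpr1, Itpr3, Ryr3, Atp2a2 and Atp2a3 and the ratio moved by more than the SD of the wild-type mice in at least 1.

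Of the pathway genes, 1 was higher and 5 lower. The numbers higher and lower were 5 and 8 with DESeq2's Wald test, 2 and 2 with length offsets, 0 and 2 with GC offsets and 0 to 1 and 1 to 7 with 1 mouse left out. They fell to 0 higher and 1 lower without wild-type mouse 1 or 2 or transgenic mouse 2 or 3. Over all genes, 591 were higher and 764 lower. DESeq2's Wald test gave 1055 and 1175, and GC offsets 153 and 248. Length offsets gave 376 lower. With 1 mouse left out, 11 to 466 were higher and 66 to 683 lower.

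Deviations of same-numbered mice correlated at 0.399, -0.357 and 0.388 across genes, so the numbers were not taken to pair mice. A block for the replicate number gave 263 genes higher and 475 lower, with 3 pathway genes lower. Block and length offsets together gave 241 higher, 355 lower and 1 pathway gene lower. Block and GC offsets together gave 151 higher, 315 lower, 0 pathway genes higher and 2 lower. No member was called with the block.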
